A study of Homo sapiens with 16 samples.

Results

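The 39 genes described here form a list of hypoxia and glycolysis genes, chosen with earlier results of these data known. Counts over the list, also beside shares of all genes, therefore only describe this list. It holds glucose and lactate transporters, the enzymes from hexokinase to lactate dehydrogenase without pyruvate kinase, and kinases that set the flux through them. It also holds carbonic anhydrases, other targets of the hypoxia-inducible factors and the factors' own alpha subunits HIF1A and EPAS1. The members were matched by gene symbol, and all 39 of 39 were present among the 23228 gene rows of the read-count tables. All 39 also passed the filter on low counts, which left 13948 genes for testing. The cells were MDA-MB-231, an established human line from breast cancer, mesenchymal in character and without the oestrogen receptor, grown in DMEM with 10% serum and collected from dishes that were not yet confluent. The oxygen tension and the glucose in the medium are not given in the sources used here. RNA sequencing covered 8 groups of 2 libraries: vehicle (DMSO) for 8 h or 24 h, the DNA-methylating agent methyl methanesulfonate (MMS) for 8 h or 24 h, the multikinase inhibitor sorafenib at 1 µM for 8 h or 24 h, and a combination in which cells received 1 µM sorafenib for 12 h before MMS and were collected 8 h or 24 h after MMS was added. The series text gives MMS as 40 µg/mL and the sample labels as 40 µM, so the dose is uncertain. Combination cells had therefore been exposed to sorafenib for 12 h longer than the cells given sorafenib alone. No group carried a genetic change, and all 16 libraries come from 1 cell line. The series text describes 2 independent experiments.

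In cells with enough oxygen, the prolyl hydroxylases EGLN1 and EGLN3 mark HIF1A and EPAS1 protein for destruction through the VHL ubiquitin ligase. Without oxygen the alpha subunits persist, pair with ARNT and bind a short core motif near genes for glucose import, glycolysis, lactate export, acid balance, mitophagy and collagen modification. Tumour cells often run the same glycolytic genes in the presence of oxygen, where MYC and growth-factor signals also act on them. Much of this control acts on protein, which read counts do not measure.

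Promoter sequence was examined because the list is defined largely by hypoxia-responsive genes. RefSeq windows on GRCh38.p14, running from 250 bases before to 50 bases after an annotated start, were found for 35 of the 39 members. The core motif ACGTG, searched on both strands so that CACGT counts too, occurred in at least 1 window of 21 of these 35 members (60%), against 24.9% of 27305 genes of all kinds. Members had more windows per gene: counted by window, 25 of 65 (38.5%) held it, against 21.4% of 35116. CACGTG, the E-box, contains ACGTG on both strands and occurred in 8 of the 35 members (22.9%), against 8.77% of genes. The alternative core GCGTG (or CACGC) was found in 28 of the 65 member windows and in 36.5% of all windows. Of the 17 members with a window that fell after 24 h of MMS (below), 9 held ACGTG, and of the 17 that were not called, 12 did. A match is a description of letters and not a binding site. The 4 stretches below are the 250 bases before the start, 5′ to 3′, with ACGTG or CACGT in capitals; they were chosen after the matches were counted. LDHA (chr11:18394313-18394562 on the plus strand), PGK1 (chrX:78103998-78104247 on the plus strand) and ANKRD37 (chr4:185396591-185396840 on the plus strand) are shown because they hold several matches and fell after MMS, and ADM (chr11:10304823-10305072 on the plus strand) because it holds none and rose.
LDHA: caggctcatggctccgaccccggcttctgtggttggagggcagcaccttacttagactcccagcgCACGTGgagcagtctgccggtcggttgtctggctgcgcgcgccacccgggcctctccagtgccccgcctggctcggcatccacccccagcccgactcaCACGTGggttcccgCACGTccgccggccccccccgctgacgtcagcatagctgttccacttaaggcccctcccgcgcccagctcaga
PGK1: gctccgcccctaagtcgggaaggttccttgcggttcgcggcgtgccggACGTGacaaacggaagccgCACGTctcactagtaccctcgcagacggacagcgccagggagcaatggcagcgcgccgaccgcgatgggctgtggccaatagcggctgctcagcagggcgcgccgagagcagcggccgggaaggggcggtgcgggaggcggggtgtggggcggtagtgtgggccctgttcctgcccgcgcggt
ANKRD37: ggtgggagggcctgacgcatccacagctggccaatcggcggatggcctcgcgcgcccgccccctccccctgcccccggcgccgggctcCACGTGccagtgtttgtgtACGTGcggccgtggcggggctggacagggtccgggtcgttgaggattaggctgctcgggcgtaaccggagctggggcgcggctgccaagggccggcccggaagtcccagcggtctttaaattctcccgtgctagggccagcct
ADM: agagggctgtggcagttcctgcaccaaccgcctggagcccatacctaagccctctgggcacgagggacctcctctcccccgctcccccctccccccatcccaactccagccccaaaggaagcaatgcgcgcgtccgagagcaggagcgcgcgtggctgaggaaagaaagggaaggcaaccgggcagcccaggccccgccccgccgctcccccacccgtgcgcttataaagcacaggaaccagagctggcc
LDHA has 5 matches in this stretch, which include both strands of 2 E-boxes. PGK1 has 2 and ANKRD37 has 3, with 1 E-box in ANKRD37. ADM has no ACGTG or CACGT. The alternative core GCGTG is not in capitals, and ADM and PGK1 each hold 1 match to it in these stretches.

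Each library held 16774156 to 26448212 reads assigned to genes (median 20348720). Levels are given as counts per 1000000 reads assigned to genes (CPM), with SDs over 2 libraries. The mesenchymal markers VIM (1479 to 2476 CPM), CD44 and AXL were high in all 16 libraries, while TWIST1, listed with them, was at 0 in all 16. Of the luminal and epithelial markers, the oestrogen receptor gene ESR1 was at most 0.224 CPM and PGR at most 0.674, whereas KRT19 (94.7 to 302), ERBB2 (56.9 to 100.4) and EPCAM (8.86 to 19.3 CPM) were detected in every library. Of the markers of other cell types, the fibroblast gene COL1A1 was at 5.34 to 18.6 CPM and the endothelial genes KDR at 4.35 to 12.4 and PECAM1 at 0.417 to 6.82, with PDGFRA at most 0.127, VWF at most 0.201 and the blood gene HBB at most 0.0425 CPM. In each group, 1 library has a title that starts with MDA231 (called replicate 1 here) and 1 a title that starts with MDAMB231 (replicate 2). The deviations of same-start libraries from their group means correlated across genes, at 0.489 to 0.707 over the 28 pairs of groups, so results are also given with the title start as a term in the model (a replicate block) where that changes them. The labels do not say that the title start marks the 2 experiments, and p-values measure only the spread between these libraries. Of the records in each deposited table, 29.5% to 31.5% had several alignments and were not assigned to genes. How many of these came from members with pseudogenes is not known, so levels are uncertain for GAPDH (62 named pseudogenes in GENCODE v29), BNIP3 (39), PGAM1 (13), LDHA (6), ENO1 (4) and TPI1 (4).

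The 39 genes together took 1.08% to 1.46% of the assigned reads. Their share was highest in DMSO at 24 h (1.39% ± 0.102), against 1.22% ± 0.00149 in DMSO at 8 h, 1.10% ± 0.00694 in MMS at 24 h and 1.12% ± 0.0422 in the combination at 24 h. Per kilobase of exon (GENCODE v29 gene models on GRCh38, which may differ from those used for counting), levels in DMSO at 8 h ran from 0.296 ± 0.310 CPM per kb for CA9 to 1073 ± 37.5 for ENO1. After ENO1 came GAPDH (952 ± 49.1), LDHA (461 ± 10.4), LDHB (438 ± 32.9) and ALDOA (297 ± 17.2 CPM per kb); LDHA and LDHB lay within the spread of their libraries, and the pseudogene limit above applies to these 5 genes. At the low end, SLC16A1, PDK1, EGLN3, ALDOC and ANKRD37 lay between 0.653 and 1.05 CPM per kb. CA9, the carbonic anhydrase often used as a hypoxia marker, had 63 reads in all 16 libraries together, and no change is given for it.

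**Figure D1:**
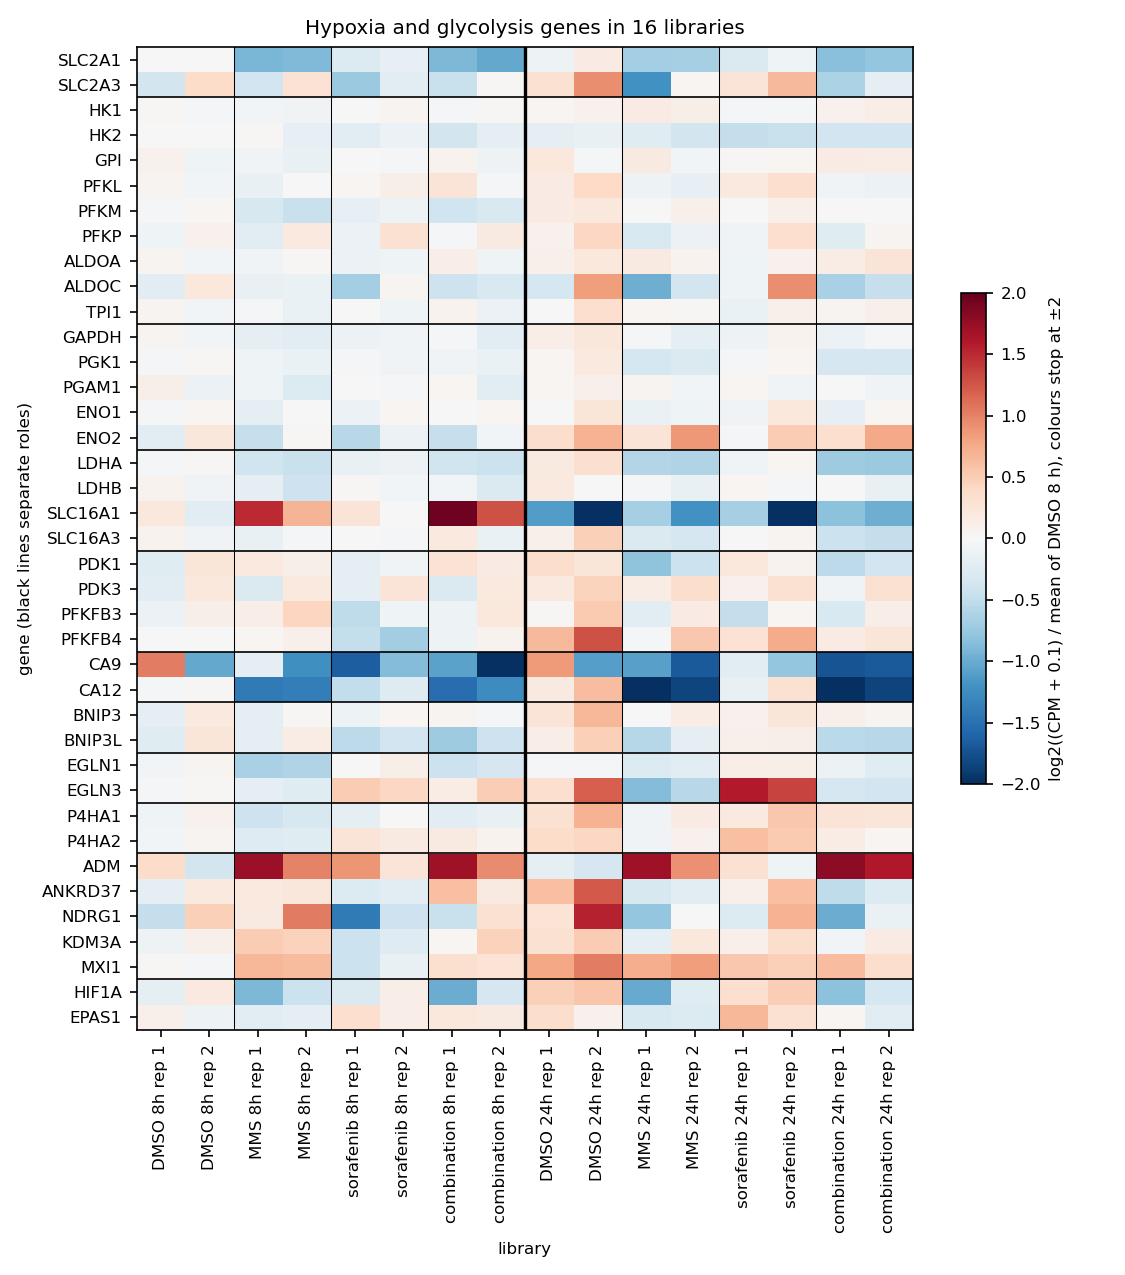
Level of each of the 39 genes (rows, with black lines between roles) in each of the 16 libraries (columns), as log2 of CPM plus 0.1 relative to the mean of the 2 DMSO libraries at 8 h, with colours that stop at 2 in either direction. DMSO replicate 2 at 24 h is the highest library for 23 of 39 genes, and the CA9 row rests on 63 reads.

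The clearest pattern was a lower level of many hypoxia and glycolysis genes after 24 h of MMS than in DMSO at 24 h. Unless another comparison is named, fell and rose mean lower or higher than in DMSO of the same time. Against DMSO at 24 h, 19 of the 39 genes fell and 1 rose (ADM, which encodes the vasodilator peptide adrenomedullin), while 16.3% of all tested genes fell and 15.2% rose. The tests were edgeR quasi-likelihood F tests across all genes, with a Benjamini-Hochberg adjusted p under 0.05 as the threshold. The median log2 change was -0.45 over the 39 genes and 0.00 over all genes. Both MMS libraries lay below both DMSO libraries for 27 of the 39 genes, against 28% of all genes. At 8 h of MMS, 5 genes fell and 3 rose, against 12% and 14.5% of all genes, and the median was -0.05. The difference between the 2 times was itself tested: the log2 effect of MMS was lower at 24 h than at 8 h for 8 genes (LDHA, PDK1, MXI1, PGK1, KDM3A, EGLN3, CA12 and ANKRD37) and higher for 0, against 5.6% and 3.53% of all genes (9.13% in either direction). With the replicate block, 28 genes were lower and 1 higher at 24 h (48.3% of all genes called in either direction), 9 lower and 6 higher at 8 h (43.3%), and the effect was lower at 24 h for 19 genes and higher for 1, EGLN1 (25.5%). Within MMS-treated cells, 7 of the 39 genes were lower and 2 higher at 24 h than at 8 h. The shares of all genes were 16.1% and 12.1%, and this split depends on scaling (below). In bulk RNA, fewer cells that express a gene and less of its RNA per cell cannot be told apart. Summed over 4 endothelial markers, levels were 16.6 to 17.7 CPM in DMSO and 5.27 to 6.21 in MMS at 24 h, with VWF near 0 throughout. Over 4 fibroblast markers they were 13.9 to 14.6 and 9.16 to 11.7 CPM, with PDGFRA near 0, and over 2 blood markers 0.511 to 0.559 and 0.116 to 0.129 CPM. For the 6 mesenchymal markers of the line, sums were 4530 to 4990 CPM in DMSO and 3700 to 3910 in MMS, with TWIST1 at 0. For the 6 luminal and epithelial markers they were 261 to 400 and 190 to 250 CPM. The part of these markers in the results was not tested.

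**Figure D2:**
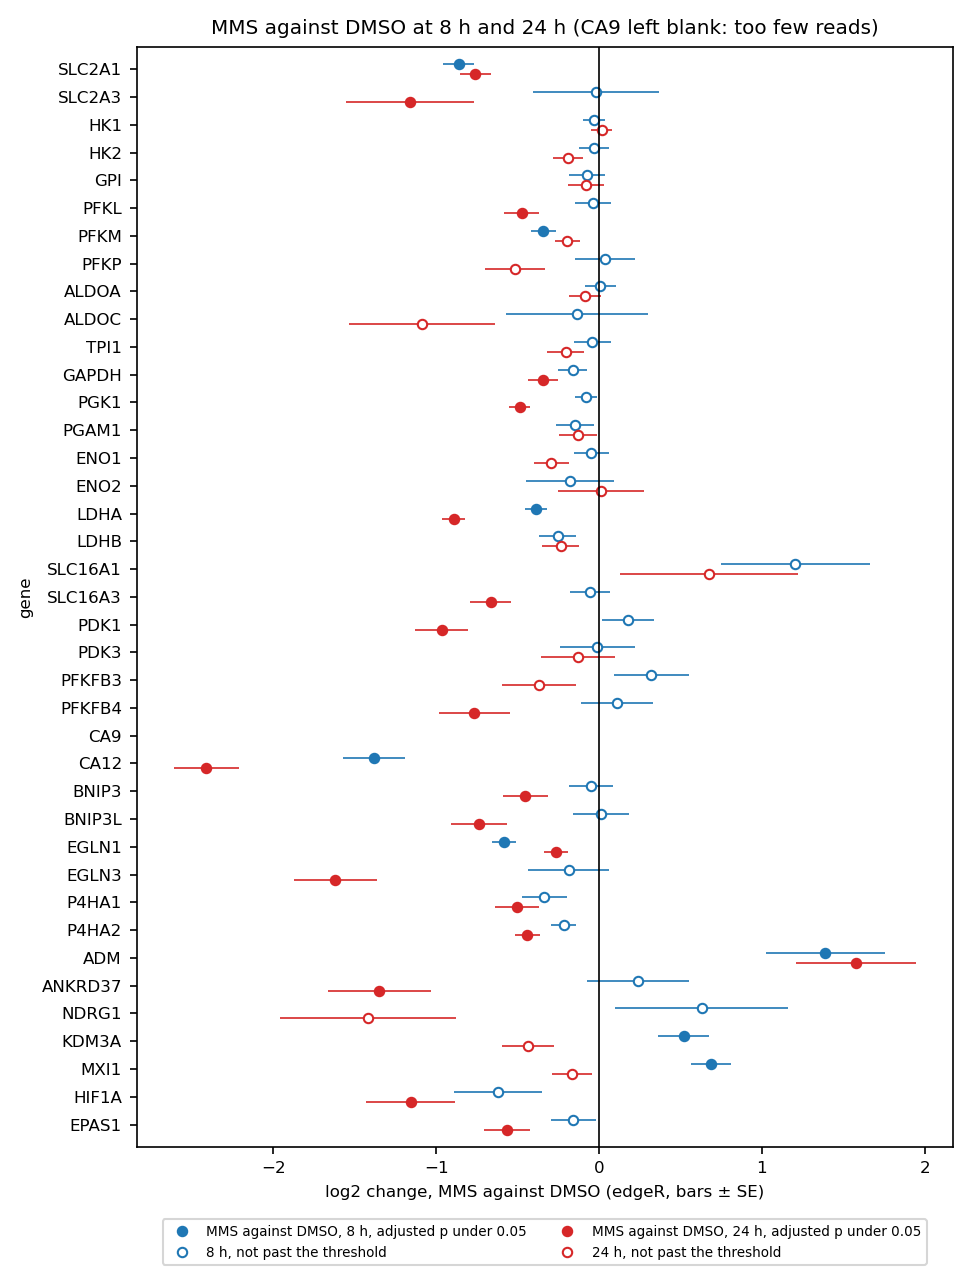
Log2 change (horizontal axis, points with SE bars from the edgeR fit) of each gene in MMS against DMSO at 8 h (blue) and 24 h (red), with filled points where the adjusted p was under 0.05 and CA9 left blank. Red filled points lie left of 0 for 19 genes and right of 0 for ADM alone.

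Transcripts of both glucose transporters fell with MMS. SLC2A1 is the main basal transporter. In CPM, SLC2A1 stood at 439 and 438 CPM in the 2 DMSO libraries at 8 h, 233 and 238 after MMS, 364 and 391 after sorafenib and 234 and 216 after the combination; at 24 h it stood at 408 and 493, 275 and 276, 359 and 415 and 247 and 258 in the same order. All 4 libraries with MMS at each time lay below all 4 without it. The fall was -0.86 ± 0.10, adjusted p = 5.42e-05 at 8 h and -0.76 ± 0.10, adjusted p = 0.00018 at 24 h on the log2 scale, and the effect of MMS did not differ between the times past the threshold (0.10 ± 0.13, adjusted p = 0.715). The high-affinity transporter SLC2A3 stood at 15.6 and 25.7 CPM in the 2 DMSO libraries at 8 h, 15.3 and 24.6 after MMS, 12.0 and 17.1 after sorafenib and 14.7 and 20.4 after the combination; at 24 h it stood at 24.8 and 38.4, 8.63 and 20.7, 23.9 and 31.3 and 12.9 and 17.7 in the same order. Replicate 2 was higher than replicate 1 in every group, and the 24 h MMS libraries lay below both DMSO libraries. SLC2A3 fell at 24 h (-1.16 ± 0.39, adjusted p = 0.0409) and not past the threshold at 8 h (-0.02).

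The 9 genes of upper glycolysis, which carry glucose to the triose phosphates, had the median change nearest 0 of the 11 roles at 24 h of MMS (-0.19). PFKL, the liver-type phosphofructokinase, fell after 24 h of MMS (-0.47 ± 0.11, adjusted p = 0.00615), and PFKM, the muscle type, fell at 8 h (-0.34 ± 0.08, adjusted p = 0.00553). The other 7 were not called with MMS at either time: their log2 changes at 24 h ran from -1.09 for ALDOC, which is at 0.985 to 3.93 CPM in all, to 0.02 for HK1. HK1, the hexokinase that starts glycolysis in most cells, varied by only 1.15-fold between its lowest and highest group mean, from 336.7 to 388 CPM. HK2, GPI, ALDOA and TPI1 lay between -0.21 and -0.08 at 24 h. PFKP, the platelet-type phosphofructokinase, was at -0.52 ± 0.19 and was called with the replicate block (-0.51, adjusted p = 2.94e-05), as were ALDOC (-1.08, adjusted p = 0.00575) and, at 24 h, PFKM (-0.19, adjusted p = 0.0377).

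In lower glycolysis, PGK1 and GAPDH fell at 24 h of MMS and ENO1, ENO2 and PGAM1 were not called. The ATP-forming kinase PGK1 stood at 708 and 729 CPM in the 2 DMSO libraries at 8 h, 674 and 652 after MMS, 698 and 688 after sorafenib and 682 and 654 after the combination; at 24 h it stood at 742 and 818, 566 and 588, 699.7 and 735 and 568 and 567 in the same order. Every MMS and combination library at 24 h lay below every DMSO and sorafenib library of either time. PGK1 fell by 0.49 ± 0.07 at 24 h (adjusted p = 0.000291) and was at -0.08 at 8 h, and the effects at the 2 times differed (-0.41 ± 0.09, adjusted p = 0.0185). GAPDH, the enzyme of the step before, fell by 0.34 ± 0.09 at 24 h (adjusted p = 0.0128). ENO1, the main enolase, was at -0.29 ± 0.11 at 24 h and was called with the replicate block (-0.29, adjusted p = 0.00257).

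Of the genes for lactate, LDHA and the lactate exporter SLC16A3 fell after 24 h of MMS. LDHA makes lactate from pyruvate, and LDHB is the isozyme that favours the reverse reaction. The lactate-forming subunit LDHA stood at 1348 and 1391 CPM in the 2 DMSO libraries at 8 h, 1037 and 1004 after MMS, 1229.8 and 1259 after sorafenib and 1041 and 1021 after the combination; at 24 h it stood at 1553 and 1703, 912 and 905, 1292 and 1414 and 839 and 817 in the same order. LDHA was lower in MMS than in DMSO at both times with no overlap, by 0.39 ± 0.07 at 8 h (adjusted p = 0.00137) and 0.89 ± 0.07 at 24 h (adjusted p = 1.25e-05), and the fall was larger at 24 h (-0.51 ± 0.10, adjusted p = 0.00843). By contrast, LDHB stood at 732 and 658 CPM in the 2 DMSO libraries at 8 h, 613 and 524 after MMS, 703 and 671 after sorafenib and 668 and 569.8 after the combination; at 24 h it stood at 791 and 699.7, 685 and 627, 714 and 685 and 688 and 628 in the same order. The LDHB groups lay closer together, with changes of -0.25 ± 0.11 at 8 h and -0.23 ± 0.11 at 24 h (adjusted p = 0.143), which were called with the replicate block (-0.23, adjusted p = 0.00502 at 24 h). SLC16A3 stood at 450.0 and 581 CPM in DMSO and 342 and 332 in MMS at 24 h (-0.67 ± 0.13, adjusted p = 0.00205). Its relative SLC16A1 stood at 3.52 and 2.58 CPM in the 2 DMSO libraries at 8 h, 8.70 and 4.91 after MMS, 3.64 and 3.01 after sorafenib and 11.9 and 7.42 after the combination; at 24 h it stood at 1.34 and 0.511, 1.85 and 1.25, 1.87 and 0.674 and 1.67 and 1.49 in the same order. SLC16A1, which carries lactate in either direction, was low throughout, and both libraries of MMS and of the combination at 8 h lay above every other library. It rose in the combination at 8 h (1.65 ± 0.46, adjusted p = 0.0212), a call lost without either DMSO library or combination replicate 1. For MMS alone at 8 h its change was 1.21 ± 0.46, adjusted p = 0.0727 (1.17, adjusted p = 0.000114 with the replicate block).

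**Figure D3:**
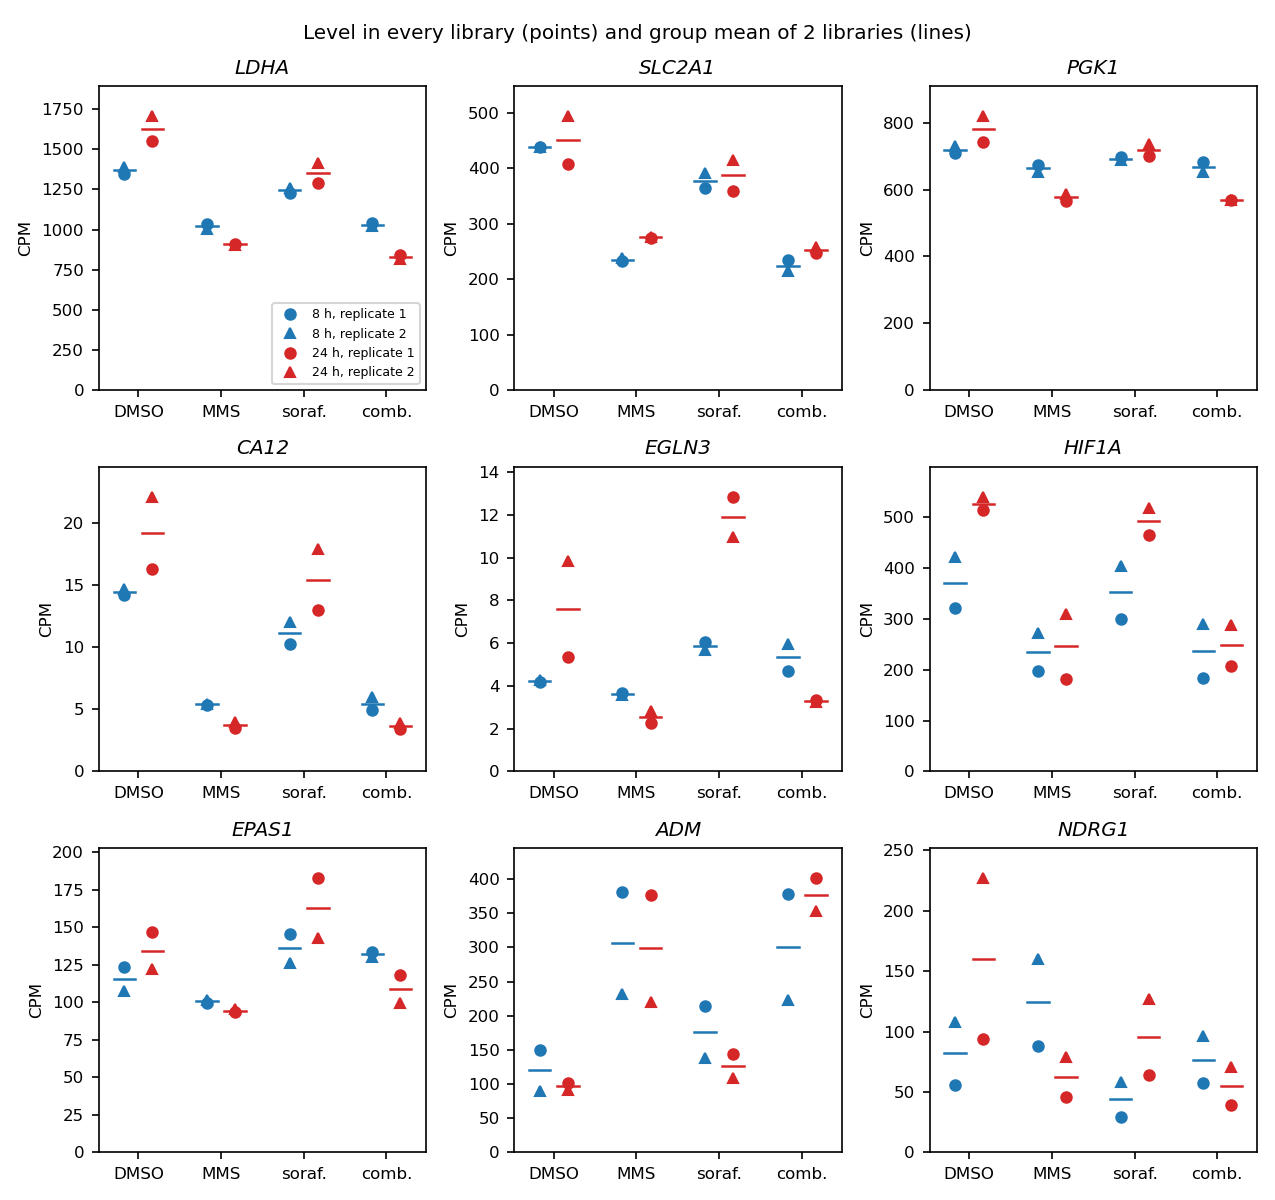
Level in CPM (vertical axes, from 0) of 9 genes in DMSO, MMS, sorafenib (soraf.) and the combination (comb.), with 8 h in blue, 24 h in red, circles for replicate 1, triangles for replicate 2 and lines for the mean of 2 libraries. LDHA in MMS at 24 h lies at 912 and 905 CPM against 1553 and 1703 in DMSO, and ADM lies higher in MMS and the combination than in DMSO at both times.

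Among the regulators, PDK1 and PFKFB4 fell at 24 h of MMS. PDK1, the kinase that keeps pyruvate out of the mitochondria by inhibiting pyruvate dehydrogenase, stood at 14.9 and 13.8 CPM in DMSO and 6.61 and 8.58 in MMS at 24 h (-0.97 ± 0.16, adjusted p = 0.00103). At 8 h it was at 0.18 ± 0.16, and the 2 effects differed (-1.14 ± 0.23, adjusted p = 0.00961). PFKFB4, which sets the level of a sugar phosphate that activates phosphofructokinase, fell by 0.77 ± 0.22 (adjusted p = 0.0187). Its relative PFKFB3 was at 0.32 ± 0.23 at 8 h and -0.37 ± 0.23 at 24 h, neither past the threshold. Under the block both PFKFB3 values were called (0.32, adjusted p = 0.00309 at 8 h and -0.36, adjusted p = 0.00112 at 24 h). PDK3 was at -0.13 ± 0.23 at 24 h.

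CA12, a membrane carbonic anhydrase that buffers the acid of glycolysis outside the cell, had the largest fall among the 38 genes with a stated change. The anhydrase CA12 stood at 14.2 and 14.6 CPM in the 2 DMSO libraries at 8 h, 5.33 and 5.44 after MMS, 10.2 and 12.0 after sorafenib and 4.95 and 5.97 after the combination; at 24 h it stood at 16.3 and 22.0, 3.48 and 3.97, 12.9 and 17.9 and 3.45 and 3.93 in the same order. At each time all libraries with MMS lay below all libraries without it. The fall was 1.38 ± 0.19 at 8 h (adjusted p = 0.000249) and 2.41 ± 0.20 at 24 h (adjusted p = 1.68e-05), which are 0.384-fold and 0.188-fold of DMSO. The mitophagy receptors BNIP3 and BNIP3L fell at 24 h (-0.45 ± 0.14, adjusted p = 0.0253, and -0.74 ± 0.17, adjusted p = 0.0068) and were at -0.05 and 0.01 at 8 h.

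Both oxygen-sensing hydroxylases were called lower at 24 h of MMS, and only EGLN1 was at 8 h. EGLN1, the main hydroxylase of the HIF alpha subunits, fell at 8 h of MMS (-0.59 ± 0.07, adjusted p = 0.000134) and at 24 h (-0.26 ± 0.07, adjusted p = 0.0171). The difference between the 2 effects was 0.32 ± 0.10 (adjusted p = 0.0773), and with the replicate block it passed the threshold (0.32, adjusted p = 0.0276). The hypoxia-induced hydroxylase EGLN3 stood at 4.17 and 4.28 CPM in the 2 DMSO libraries at 8 h, 3.67 and 3.56 after MMS, 6.05 and 5.67 after sorafenib and 4.71 and 5.97 after the combination; at 24 h it stood at 5.36 and 9.82, 2.26 and 2.85, 12.8 and 10.9 and 3.34 and 3.23 in the same order. EGLN3 was lowest in MMS at 24 h and highest in sorafenib at 24 h. It fell at 24 h of MMS (-1.62 ± 0.26, adjusted p = 0.000717) and was at -0.19 ± 0.25 at 8 h, a difference of -1.43 ± 0.36, adjusted p = 0.028. P4HA1 and P4HA2, which hydroxylate proline in collagen, also fell at 24 h (-0.50 ± 0.14, adjusted p = 0.0143, and -0.44 ± 0.08, adjusted p = 0.00135). At 8 h the block alone called them, both lower (-0.33, adjusted p = 0.00608, and -0.22, adjusted p = 0.0268).

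At 8 h of MMS, the 5 other HIF targets were all higher than in DMSO within both title starts (40% of all genes). Of these 5, 3 were called higher and 0 lower (14.5% and 12% of all genes). At 24 h they did not share a direction, with 1 called higher and 1 lower (15.2% and 16.3% of all genes). The peptide gene ADM stood at 150.1 and 90.0 CPM in the 2 DMSO libraries at 8 h, 381 and 232 after MMS, 214 and 138 after sorafenib and 377 and 223 after the combination; at 24 h it stood at 102 and 91.8, 377 and 220.1, 144 and 109.5 and 401 and 353 in the same order. ADM was higher in both MMS libraries than in both DMSO libraries at each time, and replicate 1 exceeded replicate 2 in all 8 groups. It rose with MMS at 8 h (1.39 ± 0.36, adjusted p = 0.014) and at 24 h (1.58 ± 0.37, adjusted p = 0.00676). The ankyrin-repeat gene ANKRD37 stood at 1.01 and 1.37 CPM in the 2 DMSO libraries at 8 h, 1.36 and 1.40 after MMS, 0.955 and 1.00 after sorafenib and 1.85 and 1.34 after the combination; at 24 h it stood at 1.84 and 2.90, 0.927 and 0.992, 1.27 and 1.85 and 0.796 and 0.962 in the same order. ANKRD37 had 441 reads in all 16 libraries, and its 24 h MMS libraries lay below both DMSO libraries. It fell at 24 h (-1.35 ± 0.32, adjusted p = 0.00694). The stress-responsive gene NDRG1 stood at 56.2 and 108 CPM in the 2 DMSO libraries at 8 h, 87.9 and 160.3 after MMS, 29.2 and 58.4 after sorafenib and 57.0 and 96.5 after the combination; at 24 h it stood at 94.2 and 227, 45.7 and 78.7, 64.3 and 127 and 39.1 and 70.8 in the same order. NDRG1 was higher in replicate 2 than in replicate 1 in every group, and the MMS libraries at 24 h lay below both DMSO libraries. Its changes with MMS were 0.63 ± 0.53 at 8 h and -1.42 ± 0.54 at 24 h and did not pass the threshold (adjusted p = 0.433 and 0.0641). Adding the block, they did, in opposite directions (0.65, adjusted p = 2.33e-05 at 8 h and -1.36, adjusted p = 3.52e-09 at 24 h). KDM3A, a histone demethylase, and MXI1, an antagonist of MYC, rose at 8 h of MMS (0.52 ± 0.16, adjusted p = 0.0292, and 0.69 ± 0.12, adjusted p = 0.00145) and were at -0.43 ± 0.16 and -0.17 ± 0.12 at 24 h. The block called KDM3A lower at 24 h (-0.44, adjusted p = 0.00066), opposite to its rise at 8 h, and did not call MXI1 there. For both, the effect at 24 h was below that at 8 h (-0.95 ± 0.22, adjusted p = 0.0208, and -0.86 ± 0.17, adjusted p = 0.0107). In MMS, MXI1 stood at 29.2 and 28.8 CPM at 8 h and 30.7 and 33.2 at 24 h. In DMSO it stood at 18.8 and 18.1, then 31.7 and 37.5. KDM3A stood at 90.5 and 88.3, then 56.2 and 74.2 CPM in MMS. Its DMSO levels were 59.6 and 68.5, then 78.8 and 90.9 CPM.

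Transcripts of both HIF alpha subunits fell after 24 h of MMS. The alpha subunit HIF1A stood at 321 and 420.3 CPM in the 2 DMSO libraries at 8 h, 197 and 272 after MMS, 300.1 and 404 after sorafenib and 184 and 289.9 after the combination; at 24 h it stood at 514 and 538, 182 and 309, 464 and 518 and 207 and 288 in the same order. HIF1A was lower in both MMS libraries than in both DMSO libraries at each time, and replicate 2 exceeded replicate 1 in all 8 groups. The change was -0.62 ± 0.27, adjusted p = 0.112 at 8 h and -1.16 ± 0.27, adjusted p = 0.00704 at 24 h, and with the replicate block the 8 h change was called as well (-0.63, adjusted p = 0.000186). The second alpha subunit EPAS1 stood at 123 and 107 CPM in the 2 DMSO libraries at 8 h, 99.8 and 102 after MMS, 146 and 127 after sorafenib and 134 and 130.4 after the combination; at 24 h it stood at 147 and 122, 93.5 and 95.3, 183 and 143 and 118 and 99.6 in the same order. Both MMS libraries at 24 h lay below all others for EPAS1, and sorafenib at 24 h had the highest mean, with 1 of its libraries below 1 of DMSO at 24 h. It fell by 0.56 ± 0.14 at 24 h (adjusted p = 0.0092) and was at -0.16 ± 0.14 at 8 h. Whether counting used strand is not given in the sources used here, so reads of antisense transcripts cannot be told apart from those of HIF1A.

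Several of these calls were lost when 1 library was left out, which leaves its group with 1 library. Of the 20 genes called in MMS against DMSO at 24 h, 8 were called whichever of the 4 libraries was left out, with a lone library assumed to vary like the others. Without DMSO replicate 2 at 24 h, 10 genes were called, all lower, and SLC2A3, PFKL, GAPDH, PFKFB4, BNIP3, BNIP3L, EGLN1, P4HA1, ADM and ANKRD37 were not (adjusted p from 0.0513 to 0.269). Without MMS replicate 1 at 24 h, 11 were called, and SLC2A3, PFKFB4, BNIP3, BNIP3L, EGLN1, P4HA1, ADM, HIF1A and EPAS1 were not (0.0692 to 0.272). Leaving out MMS replicate 2 lost PFKL, GAPDH, BNIP3, EGLN1 and EPAS1 (0.0575 to 0.136), and leaving out DMSO replicate 1 lost EGLN1 and EPAS1 (0.0516 and 0.0809). At 8 h, ADM lost its call without DMSO replicate 2 or MMS replicate 1, and KDM3A without each of the 4 libraries in turn (0.0647 to 0.167 for both genes). Within each title start, at 24 h, 34 of 39 genes were lower in MMS than in DMSO in both pairs of libraries, against 40.1% of all genes, with medians of -0.40 in replicate 1 and -0.48 in replicate 2.

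**Figure D4:**
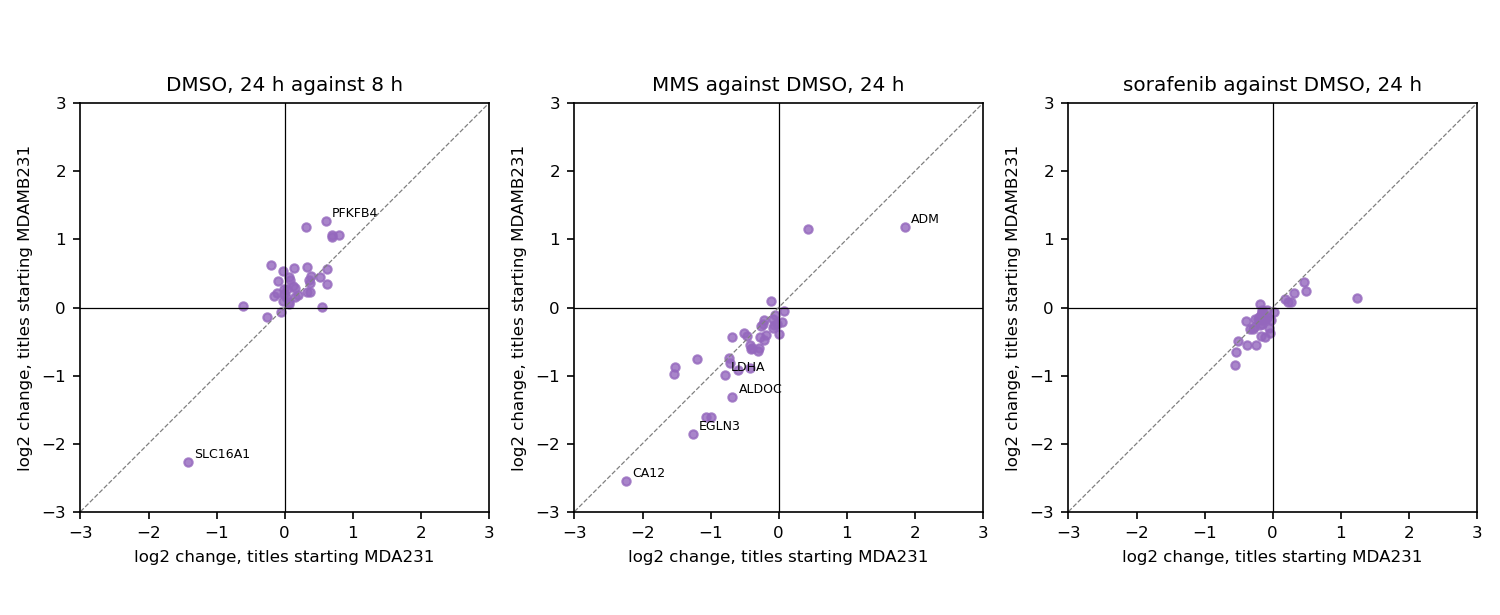
Log2 change of each gene except CA9 within libraries whose titles start MDA231 (horizontal axes) and within those whose titles start MDAMB231 (vertical axes), for DMSO at 24 h against 8 h, MMS against DMSO at 24 h and sorafenib against DMSO at 24 h, with a dashed line of equality. In MMS at 24 h most points lie in the lower left and ADM and SLC16A1 in the upper right, and in DMSO over time most points lie in the upper right.

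Vehicle-treated cells also differed between 8 h and 24 h. In DMSO, 34 of the 39 genes had a positive log2 change from 8 h to 24 h, with a median of 0.26 against 0.01 over all genes, but only MXI1 rose past the threshold (0.88 ± 0.12, adjusted p = 0.0247) and 0 fell, against 0.366% and 0.294% of all genes. MXI1 was not called without DMSO replicate 1 or 2 at 8 h or without replicate 2 at 24 h (adjusted p = 0.114, 0.18 and 0.155). DESeq2 called 6 genes (4.72% of genes with an adjusted p, which 3 members lack), and at an unadjusted p under 0.05 in edgeR there were 11 (16.2% of all genes). With the replicate block 13 genes rose and 1 fell (13.6% of all genes called). Those that rose were SLC2A3, ENO2, LDHA, PFKFB4, BNIP3, EGLN3, P4HA1, P4HA2, ANKRD37, NDRG1, KDM3A, MXI1 and HIF1A, and SLC16A1 fell. In both DMSO libraries at 24 h, 20 of 39 genes stood above both at 8 h (24.2% of all genes), and 26 were higher within both title starts (33.2%), with medians of 0.12 in replicate 1 and 0.28 in replicate 2. DMSO replicate 2 at 24 h was the highest of all 16 libraries for 23 genes, and DMSO at 24 h had the highest group mean for 25. PFKFB4 (0.97 ± 0.22), ANKRD37 (0.95 ± 0.31), NDRG1 (0.94 ± 0.53) and EGLN3 (0.81 ± 0.25) had the largest positive values beside MXI1, and SLC16A1 (-1.73 ± 0.52) the most negative, none of them past the threshold without the block.

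The DMSO libraries at 24 h enter both the change over time in vehicle and the MMS comparison at 24 h, so these values are not independent. Values that do not use them are therefore given too. Against DMSO at 8 h, where treatment and time both differ, both 24 h MMS libraries lay below both DMSO libraries for 18 of the 39 genes and above them for 5, while 24.9% and 39.2% of all genes did so. The 18 include SLC2A1, PFKL, PGK1, LDHA, SLC16A3, PDK1, CA12, EGLN1, EGLN3, ANKRD37, HIF1A and EPAS1. SLC2A3, GAPDH, PFKFB4, BNIP3, BNIP3L, P4HA1 and P4HA2 are not among the 18, although they were called lower against DMSO at 24 h. Within MMS-treated cells, from 8 h to 24 h, 7 genes fell and 2 rose (16.1% and 12.1% of all genes). PDK1 (-0.89 ± 0.16), PGK1 (-0.32 ± 0.07), SLC16A1 (-2.26 ± 0.49), LDHA (-0.29 ± 0.07), HK2 (-0.36 ± 0.09), KDM3A (-0.58 ± 0.16) and CA12 (-0.65 ± 0.20) fell, and PFKM (0.31 ± 0.08) and EGLN1 (0.26 ± 0.07) rose. This split depends on scaling: with library totals alone, which shift the median of all genes by 0.12, 4 fell and 6 rose. Under the block 13 fell and 4 rose (45.5%).

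Sorafenib alone changed 0 of the 39 genes past the threshold at 8 h or at 24 h, where 0.394% and 0.817% of all genes were called in either direction. At an unadjusted p under 0.05 in edgeR there were 3 and 9 genes (7.6% and 9.03% of all genes). DESeq2 called 0 and 1 (1.43% and 2.13% of genes with an adjusted p), with 1 member given no adjusted p at each time. The medians were -0.08 and -0.16 on the log2 scale, and at 24 h 32 of 39 changes were negative. Within both title starts, 29 of 39 genes were lower in sorafenib than in DMSO at 24 h (32.5% of all genes). With the replicate block, 4 genes fell and 1 rose at 8 h (5.03% of all genes): NDRG1 (-0.90, adjusted p = 1.33e-05), BNIP3L (-0.45, adjusted p = 0.00885), ENO2 and KDM3A fell and ADM rose. At 24 h with the block, 6 fell and 1 rose (7.18%): NDRG1 (-0.72, adjusted p = 6.15e-05), PFKFB3, LDHA (-0.28, adjusted p = 0.0125), HK2, ENO2 and MXI1 fell and EGLN3 rose (0.66, adjusted p = 0.0406). The sorafenib effect passed no threshold for a difference between the times in any member in edgeR, with or without the block, or in DESeq2 (0% of all genes in each), and 0 members had an unadjusted p under 0.05 (1.08% of all genes). From 8 h to 24 h within sorafenib, MXI1 (0.75 ± 0.13, adjusted p = 0.011), PFKFB4 (1.06 ± 0.22, adjusted p = 0.0279) and EGLN3 (0.97 ± 0.24, adjusted p = 0.0496) rose and 0 fell (1.6% and 1.88% of all genes). Both sorafenib libraries at 24 h stood above both at 8 h for 23 of the 39 genes and below them for 3. The shares of all genes were 31.2% and 19.1%. Between 0 and 1 of the 39 genes were called when any 1 library of that comparison was left out.

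After sorafenib and MMS together, both glucose transporters, both mitophagy receptors and LDHA were called lower at 24 h and ADM higher. Upper glycolysis had 3 of 9 genes called lower, lower glycolysis 2 of 5 and oxygen sensing 1 of 2. Against DMSO at 24 h, 20 genes fell and 1 rose (17.2% and 16.2% of all genes, 33.4% in either direction), with a median of -0.40, and at 8 h 7 fell and 2 rose (11.8% and 12.5%). With the replicate block these became 31 and 1 at 24 h (50.5% of all genes called) and 11 and 3 at 8 h (39.5%). Of the 19 genes lower with MMS at 24 h, 16 were also lower in the combination, which is compared with the same DMSO libraries. LDHA (-1.03 ± 0.07), CA12 (-2.43 ± 0.20), SLC2A1 (-0.89 ± 0.10), HIF1A (-1.14 ± 0.27) and ADM (1.91 ± 0.37) passed the threshold in the combination at 24 h. NDRG1 fell there too (-1.60 ± 0.54, adjusted p = 0.0391), and lost its call without DMSO replicate 2 or either combination library at 24 h. Without DMSO replicate 2, 13 genes were called in all, 12 of them lower, and SLC2A3, HK2, PFKL, PFKM, GAPDH, PFKFB4, BNIP3, NDRG1 and MXI1 were not (adjusted p from 0.0954 to 0.339). Leaving out combination replicate 1 lost 8 calls (0.0638 to 0.227), HIF1A among them, and leaving out replicate 2 lost 10 (0.0505 to 0.17). EGLN1, P4HA1 and EPAS1 passed the threshold with MMS alone and not in the combination (-0.20 ± 0.07, -0.31 ± 0.14 and -0.36 ± 0.14), and NDRG1, MXI1, PFKM and HK2 the other way round. With the block, 5 of these 7 were called lower in both (EGLN1, P4HA1 and EPAS1 in the combination at -0.20, adjusted p = 0.0266, -0.30, adjusted p = 0.00793 and -0.36, adjusted p = 0.00226), and MXI1 and HK2 only in the combination, a difference not past the threshold in the direct comparison.

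Set directly against MMS alone, the combination differed for 0 of the 39 genes at 8 h and at 24 h, where edgeR called 0.624% (0.401% as lower) and 0.122% of all genes. At an unadjusted p under 0.05 in edgeR there were 6 and 1 genes (13.8% and 4.94% of all genes). DESeq2 called 2 and 0 (3.7% and 0.676% of genes with an adjusted p, which 5 members and 1 member lack). The largest differences at 8 h were in NDRG1 (-0.73 ± 0.53), BNIP3L (-0.60 ± 0.17) and EGLN3 (0.52 ± 0.25), and at 24 h in EGLN3 (0.36 ± 0.26), ADM (0.33 ± 0.36) and MXI1 (-0.30 ± 0.12), with CA9 left out. For LDHA the difference was -0.13 ± 0.07 at 24 h and for HIF1A 0.02 ± 0.27. With the replicate block 4 genes were lower and 2 higher in the combination at 8 h (9.51% of all genes) and 0 at 24 h (2.03%). NDRG1 (-0.73, adjusted p = 8.78e-05), BNIP3L (-0.60, adjusted p = 0.000775), PFKFB3 and MXI1 were the lower ones, and P4HA2 (0.33, adjusted p = 0.0109) and EPAS1 (0.34, adjusted p = 0.0203) the higher ones. Against sorafenib alone, the combination was lower for 13 genes and higher for 1 at 24 h (18.8% and 18% of all genes, 36.8% in either direction) and lower for 5 and higher for 3 at 8 h (11.6% and 13%). The interaction of sorafenib and MMS is the combination minus both single effects. It passed the threshold for 0 of the 39 genes and for 0% of all genes at both times. Its log2 value was positive for 31 of the 39 genes at 8 h and 32 at 24 h. The medians were 0.08 and 0.12, against 0.01 and 0.01 over all genes. At an unadjusted p under 0.05 in edgeR there were 0 of the 39 genes as well (3.62% of all genes at 8 h and 2.18% at 24 h), and DESeq2 called 0 of them (0.00717% of all genes at each time).

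The combination effect was also lower at 24 h than at 8 h, for 10 genes, and higher for 0 (6.32% and 4.49% of all genes). These were LDHA (-0.61 ± 0.10, adjusted p = 0.00353), SLC16A3 (-0.84 ± 0.18, adjusted p = 0.013), EGLN3, PDK1, P4HA2, MXI1, PGK1, ANKRD37, CA12 and PFKL. Under the block 19 were lower and 1 higher (28.8%). For the MMS effect, leaving out MMS replicate 1 at 24 h left 1 gene, leaving out DMSO replicate 1 at 8 h left 2, leaving out DMSO replicate 1 at 24 h gave 10, and each other library gave 3 to 5. For the combination effect, leaving out combination replicate 2 at 24 h left 1 gene, leaving out DMSO replicate 1 at 8 h or replicate 2 at 24 h left 2, and each other library gave 3 to 11. LDHA was called for the MMS effect whichever library was left out, and the other 7 genes each lost their call without at least 1 library. From 8 h to 24 h within the combination, 7 genes fell and 1 rose (13.2% and 10.5% of all genes), or 5 and 2 with library totals alone.

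Genes around the 39 were read from lists of the same pathways, matched by symbol. These lists too were chosen with earlier results of these data known. Of 29 further hypoxia-responsive genes tested, 13 fell and 2 rose after 24 h of MMS, with a median of -0.42, beside the 16.3% and 15.2% of all genes given above. The collagen cross-linker LOXL2 (-1.72 ± 0.09, adjusted p = 2.31e-06), the mTORC1 inhibitor DDIT4 (-2.44 ± 0.22, adjusted p = 2.41e-05) and the angiogenic factor VEGFA (-1.53 ± 0.18, adjusted p = 0.000126) had the smallest p-values. Of 14 genes of the HIF core and its turnover, 2 fell and 2 rose. ARNT2 (-1.35 ± 0.18, adjusted p = 0.000273) and ARNT (-0.33 ± 0.10, adjusted p = 0.0214), the partners of the alpha subunits, fell, and HIF1AN, which blocks HIF activity in the presence of oxygen, rose (0.30 ± 0.10, adjusted p = 0.0414).

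Over 4 lists of neighbouring steps of glucose metabolism, 6 of 37 genes fell (16.2%) and 5 rose (13.5%) after 24 h of MMS, near the 16.3% and 15.2% of all genes. Of 11 other glycolytic isozymes and steps tested, PKM2 as deposited, the pyruvate kinase gene, fell (-0.88 ± 0.09, adjusted p = 6.53e-05) and C12orf5, which encodes the fructose bisphosphatase TIGAR, rose (0.62 ± 0.08, adjusted p = 0.000307). Of 12 genes for pyruvate entry into mitochondria 4 fell and 0 rose. They included pyruvate carboxylase PC (-1.51 ± 0.14, adjusted p = 2.53e-05) and the dehydrogenase subunits PDHB (-0.38 ± 0.09, adjusted p = 0.00834) and DLD (-0.23 ± 0.07, adjusted p = 0.0224). In the pentose phosphate pathway TALDO1 alone of 7 genes rose (0.72 ± 0.10, adjusted p = 0.000307) and 0 fell. Of 7 genes for glucose sensing and MYC, 3 rose and 1 fell, with the glucose-responsive factor MLXIPL lower (-2.73 ± 0.59, adjusted p = 0.00448) and ARRDC4 (0.96 ± 0.23, adjusted p = 0.00752) and MYC (0.37 ± 0.10, adjusted p = 0.0165) higher. In DMSO from 8 h to 24 h, DDIT4 (1.50 ± 0.21, adjusted p = 0.0241) and PDK2, a further pyruvate dehydrogenase kinase (0.57 ± 0.09, adjusted p = 0.0314), rose, and 0 of the other genes in these 6 lists passed the threshold. The genes with the next smallest p-values over time were PGM1 (0.30 ± 0.07, adjusted p = 0.0675), BHLHE40 (0.80 ± 0.20, adjusted p = 0.083) and ARNT (0.36 ± 0.10, adjusted p = 0.0984).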

How the data were processed

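Each of the 16 deposited tables gives raw read counts for 23228 gene symbols and 5 counter rows, which were left out. Per the submitters' processing notes, CASAVA 1.8.2, TopHat2 2.0.8b, HTSeq and hg19 were used; the gene annotation, strand setting and counting mode are not given in the sources used here. Records with no gene made up 6.88% to 7.94% of a table, ambiguous ones 1.03% to 1.18% and those with several alignments 29.5% to 31.5%. Depth was 16774156 to 26448212 assigned reads per library.

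Levels are counts per 1000000 summed gene reads (CPM). Tests between groups used edgeR 4.0.16, run in R 4.3.3 (quasi-likelihood F test, TMM factors from 0.954 to 1.06, filterByExpr by group), with all 16 libraries and 1 mean per group in 1 fit (8 residual degrees of freedom) and Benjamini-Hochberg adjustment over 13948 genes in each of 19 comparisons, at a threshold of 0.05. The method was tested on simulated counts, drawn independently for each library with no effect of the title start. That test therefore does not cover such an effect. Groups come from the labels, with 2 libraries each. The alternatives were other scaling factors, DESeq2 1.42.0, other filters, the replicate block, only the libraries compared, and each library left out.

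The replicate block rests on the title start. Deviations from the group means correlated between same-start libraries at 0.489 to 0.707 (median 0.638) over 28 pairs of groups, and the second principal component separated the 2 starts. The biological coefficient of variation was 0.136 without the block and 0.0632 with it. Changes within a title start, comparisons of 24 h treatments with DMSO at 8 h, and the sequences shown were added after seeing the data.

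The members and the gene lists were chosen with earlier results of these data known, so the counts are descriptions of those lists. Every library's value is given for members past the threshold with a log2 change of at least 1 in a treatment against DMSO or in DMSO over time, and for HIF1A, EPAS1, LDHA, LDHB, SLC2A1 and PGK1. Other pathway lists are named by up to 3 genes with the smallest p in MMS at 24 h and in DMSO over time.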

Additional observations from a re-analysis of the deposited data

Results flagged for a closer look

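For 8 genes the effect of MMS differed between 24 h and 8 h by a test of that difference in edgeR. The log2 effect at 24 h minus that at 8 h was -0.51 for LDHA, -1.14 for PDK1, -0.86 for MXI1, -0.41 for PGK1, -0.95 for KDM3A, -1.43 for EGLN3, -1.03 for CA12 and -1.59 for ANKRD37. MXI1 and KDM3A rose at 8 h and were not called at 24 h, where the replicate block called KDM3A lower (-0.44, adjusted p = 0.00066), and LDHA and CA12 fell at both times. PDK1, PGK1, EGLN3 and ANKRD37 fell at 24 h and were not called at 8 h. MXI1 levels in MMS were not lower at 24 h than at 8 h in CPM, while those in DMSO were higher.

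For 10 genes the effect of the combination differed in the same way. The values were -0.61 for LDHA, -0.84 for SLC16A3, -1.59 for EGLN3, -1.01 for PDK1, -0.47 for P4HA2, -0.75 for MXI1, -0.39 for PGK1, -1.87 for ANKRD37, -1.02 for CA12 and -0.55 for PFKL. Both sets use the same DMSO libraries, among them DMSO replicate 2 at 24 h, which is the highest library for 23 of the 39 genes. The counts also fell without most other libraries of these comparisons, and leaving out any library leaves 1 in its group. The part of DMSO replicate 2 at 24 h in these differences was not tested.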

How the results depend on the processing

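No member that passed the threshold took the opposite sign under other scaling factors, filters, DESeq2, the replicate block or a library left out. This covers each treatment against DMSO, the combination against MMS, DMSO over time and the difference of the MMS effect between times. The other comparisons and genes outside the 39 are not covered. The number of the 39 genes past the threshold moved both with the replicate block and with single libraries. With the replicate block it went from 8 to 15 in MMS at 8 h, 0 to 5 and 0 to 7 in sorafenib at 8 h and 24 h, 9 to 14 and 21 to 32 in the combination at 8 h and 24 h, 0 to 6 in the combination against MMS at 8 h, 8 to 14 and 14 to 22 in the combination against sorafenib at 8 h and 24 h, 1 to 14 in DMSO over time, and 9 to 17, 3 to 15 and 8 to 17 over time in MMS, sorafenib and the combination. The difference of the MMS effect between times went from 8 to 20 genes and that of the combination effect from 10 to 20. In MMS at 24 h it went from 20 to 29. DESeq2 gave 1 gene in sorafenib at 24 h, 2 in the combination against MMS at 8 h, 6 in DMSO over time and 7 in sorafenib over time. No filter gave 2 in DMSO over time. With only the libraries compared, the counts were 5 in the combination and 4 in the combination against sorafenib at 8 h, 0 in DMSO and 0 in sorafenib over time, 5 in MMS and 5 in the combination over time, and 4 and 1 for the differences of the MMS and combination effects; these fits have fewer residual degrees of freedom.

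Leaving out 1 library at a time gave 10 to 22 genes in MMS at 24 h, 6 to 7 in MMS at 8 h, 5 to 10 and 11 to 21 in the combination at 8 h and 24 h, 0 to 1 in the combination against MMS at 8 h, 4 to 7 and 11 to 13 in the combination against sorafenib at 8 h and 24 h, 0 to 1 in DMSO over time, 4 to 8 in MMS, 0 to 1 in sorafenib and 3 to 7 in the combination over time, and 1 to 10 and 1 to 11 for the differences of the MMS and combination effects. Counts in ANKRD37 (441 reads in all), ALDOC (623), SLC16A1 (1158) and CA9 (63) limit what could be detected in them. The cause of the other differences was not tested.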
